A study of Homo sapiens with 2 samples.

Results

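The genes described here encode the PI3K, AKT and mTOR signalling pathway and were chosen by name, from a list of 39 gene names that stand for 38 genes. mTOR is written FRAP1 on the array, RPTOR is written KIAA1303, PHLPP1 is written PHLPP and SGK1 is written SGK. All 38 genes were among the 30484 gene names on the array, and 37 of them were measured on both arrays. The remaining gene, PRKAA2, which encodes a catalytic subunit of AMPK, had 3 probes with processed signals of 3.15 to 3.42 in SAS and 3.64 to 4.00 in eSAS cells, none of them well above background.

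The study prepared RNA from SAS cells, a line from a human squamous carcinoma of the tongue, and from eSAS cells, the population that SAS cells gave after 5 rounds in which spheroids held back on a removable mesh were grown on. The study gives DMEM with serum for SAS cells, and its paper does not name the medium of the eSAS cells used for RNA. The selection rounds used a spheroid-forming medium with epidermal and basic fibroblast growth factors on low-adhesion plates. The populations therefore differed in culture history. The RNA of each was labelled with Cy3 and hybridised to 1 array of the same slide. The study's methods describe picking a single cell by limiting dilution when a cell line was established, but do not say whether the eSAS RNA came from such a clone. With 1 array of each, selection, culture and hybridisation cannot be told apart, the populations could not be tested against each other, and the spread between cultures is unknown.

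PI3K enzymes phosphorylate a membrane lipid in response to growth factor receptors, and the lipid product recruits PDK1 and AKT to the membrane. AKT inactivates the TSC complex and so frees the small GTPase RHEB to activate mTOR complex 1, which drives protein synthesis through the S6 kinases and the 4E-BP proteins. AKT also keeps FOXO transcription factors out of the nucleus. Activity in this pathway is set mostly by phosphorylation, which mRNA levels do not show. Activating mutations of PIK3CA are frequent in squamous carcinomas of the head and neck. The study blotted AKT, mTOR and their phosphorylated forms in SAS and eSAS spheres, with or without an inhibitor of the acyltransferase HHAT. It reported lower levels after inhibition, especially in eSAS cells. Those blots are of protein in spheres, with or without the inhibitor. The arrays measured RNA, which the paper says was taken from cells in log growth phase.

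Values are the scanner's processed signals, linear intensities after background subtraction, and ratios are eSAS over SAS on the log2 scale after each array was divided by its 75th percentile (1242 for SAS and 1196 for eSAS). Signals of different probes cannot be set against each other. Replicate spots of the same probe varied in their log2 ratio with an SD of 0.076 (214 probes), and the scanner's own error model gave a median error of 0.20 for the log2 ratio of a single spot. Both describe technical spread within these 2 arrays. A gene is called higher or lower where its mean log2 ratio over probes well above background on both arrays was at least 1.5-fold. Shares over all gene names also count 1398 names with a probe above background on 1 array only, by their bound, so shares over the 19467 names measured on both arrays, as all 37 pathway genes were, are given as well.

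Most pathway genes had nearly equal signals in both cell populations. Of 37 measured genes, 26 lay within 1.2-fold, which is 70.3% beside 69.6% of all gene names and 72.6% of those measured on both arrays. PIK3CG was the 1 gene at least 1.5-fold higher in eSAS cells (4.64% of all 20865 measured gene names were), and INPP5D and RPS6KA3 were the 2 genes at least 1.5-fold lower (6.35% of all). Among gene names measured on both arrays, 3.19% were higher and 4.99% were lower. The pathway genes, with 2.70% higher and 5.41% lower, were close to these shares in both directions. At the 2-fold limit, PIK3CG was higher and INPP5D was lower, and 2% and 2.14% of all gene names, or 1.01% and 1.37% of those measured on both arrays, passed that limit in those directions. The median log2 ratio of the 37 genes was 0.05, beside -0.0049 for all gene names and -0.0012 for those measured on both arrays, with 21 genes above 0 and 16 below. Normexp background correction fitted on all spots was the 1 alternative that moved the median of all gene names by more than 0.1, by 0.63, and 13 of the 37 genes changed sign under it.

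**Figure D1:**
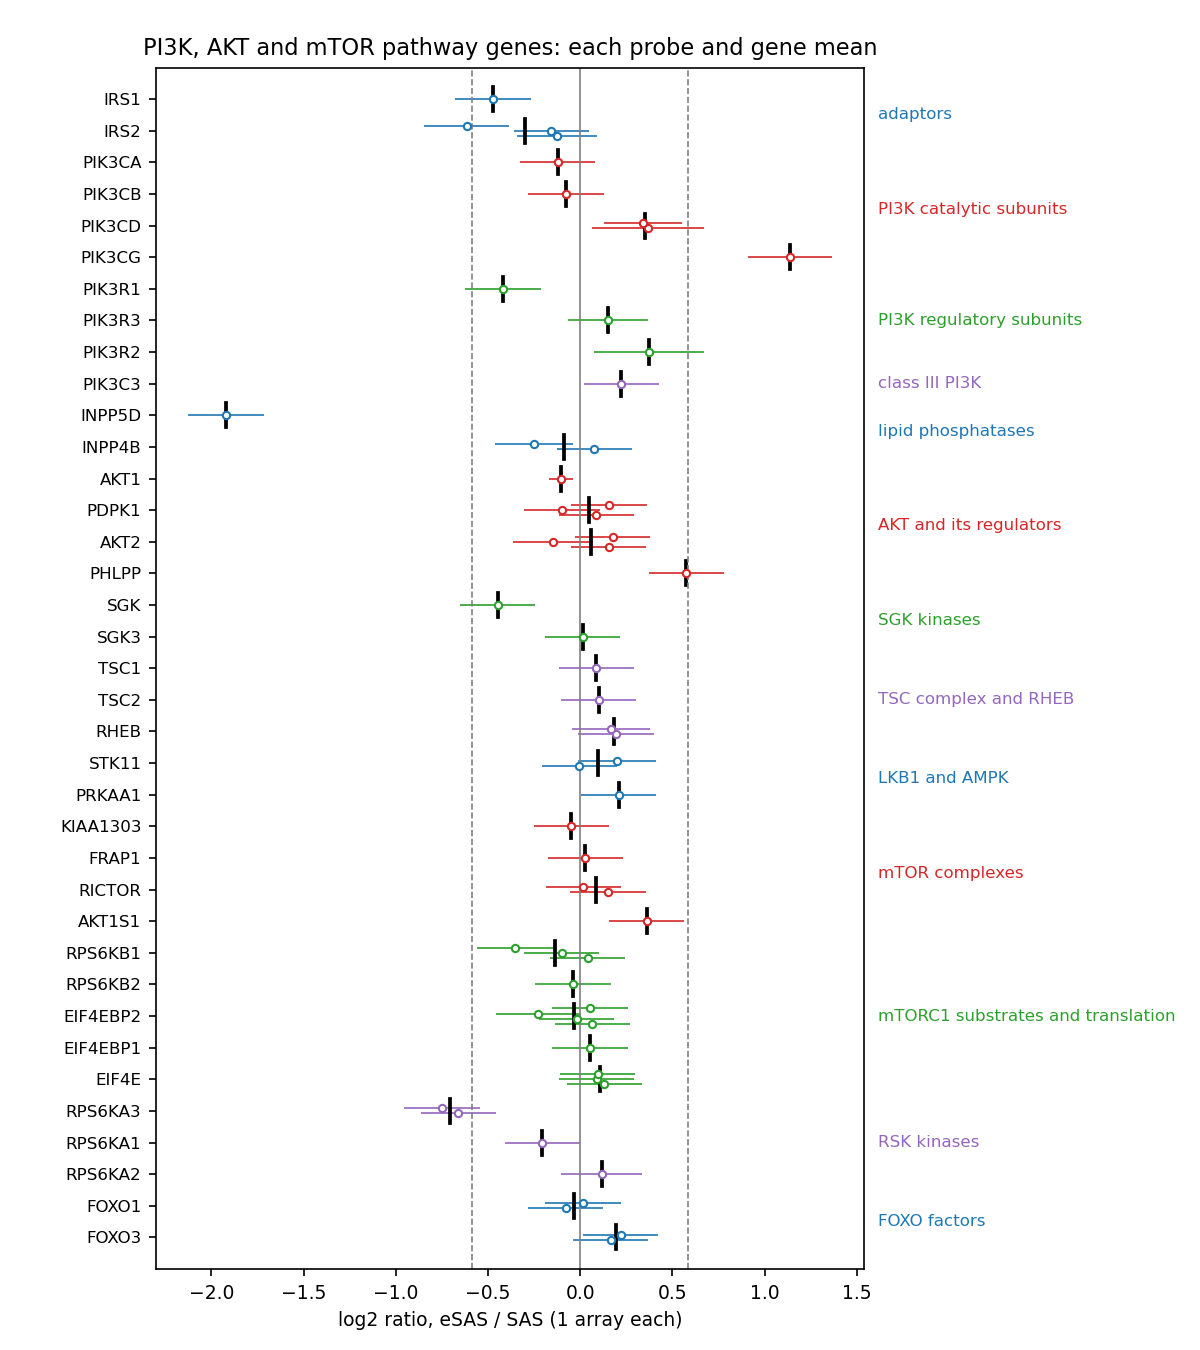
The log2 ratio of eSAS over SAS (x axis) is plotted for each of 37 pathway genes (y axis), grouped and coloured by role; open points are probes well above background on both arrays, whiskers are the scanner's error of the ratio, black bars are gene means and dashed lines mark 1.5-fold. INPP5D at -1.92, RPS6KA3 at -0.71 and PIK3CG at 1.14 lie outside the dashed lines, and PHLPP at 0.58 lies just inside.

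At the top of the pathway are the insulin receptor substrates, adaptors that couple the insulin and IGF receptors to PI3K. The IRS1 probe had a processed signal of 1216 in SAS and 843 in eSAS cells, a log2 ratio of -0.47. For IRS2, the brightest of 3 probes had 3632 in SAS and 3139 in eSAS cells (log2 ratio -0.16) and the dimmest had 86.2 and 54.1 (-0.62), with the remaining probe at -0.12. All 4 probes of both adaptors were dimmer on the eSAS array, but the IRS2 probes spread over more than the scanner's error, and neither gene mean passed 1.5-fold. IRS2 had a mean log2 ratio of -0.30.

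Of the catalytic subunits of class I PI3K, PIK3CA and PIK3CB, found in most cell types, were similar in both populations. The PIK3CA probe had 943 in SAS and 834 in eSAS cells (log2 ratio -0.12), and the PIK3CB probe had 172 and 157 (-0.08), both within the scanner's error of 0. The other two subunits, PIK3CD and PIK3CG, are best known from leukocytes. Both PIK3CD probes above background were brighter in eSAS cells, with signals of 98.2 and 120 for the first and 31.3 and 39.0 for the second. The gene's mean log2 ratio was 0.35. At these dim signals it depended on the processing, and it ran from 0.16 to 2.37 over the alternatives. The highest came with normexp fitted on all spots, and the next was 0.67, without a filter on dim probes. The third PIK3CD probe was not above background.

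PIK3CG encodes p110gamma, the catalytic subunit activated through G protein-coupled receptors. Its probe, on chr7:106333484-106333543 of hg18 (plus strand), had a processed signal of 56.7 in SAS and 120 in eSAS cells, a 2.20-fold difference with a log2 ratio of 1.14 and a scanner error of 0.23. It rests on 1 spot per array and on signals near the background. The log2 ratio was 0.73 without background correction, 0.62 with a normexp correction fitted without spots of marked local background and 2.56 with normexp fitted on all spots. A probe for a transcript cluster with no gene symbol starts 2976 bases further along the same strand. It was singled out after its values were seen. It had 355 in SAS and 785 in eSAS cells, a 2.29-fold difference, so both probes at this place were brighter on the eSAS array to a similar degree. Whether the second probe lies in an exon of PIK3CG was not analysed here.

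The regulatory subunits, which hold the catalytic subunits inactive until a receptor binds them, had log2 ratios of both signs. PIK3R1 had 263 in SAS and 189 in eSAS cells (log2 ratio -0.42), and its second probe, at 23.1 in SAS cells, was not well above background in eSAS cells, which bounds its log2 ratio at -0.55 or lower. PIK3R2 was dim, at 30.0 and 37.4 (log2 ratio 0.37, scanner error 0.30), and PIK3R3 had 102 and 109 (0.15). The PIK3R2 ratio ran from 0.11 to 2.76 over the alternatives, the highest with normexp fitted on all spots. In the main processing none of the 3 passed 1.5-fold. PIK3R1 did (-0.78) when both of its probes were averaged without a filter. PIK3C3, the class III enzyme that acts in autophagy and endosomal sorting, had 1243 and 1397 (0.22). Its single spot lies in rows 450 to 510, where the SAS array had most of its non-uniform spots.

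INPP5D showed the largest difference among the 37 genes. It encodes SHIP1, a phosphatase known mainly from blood cells that removes a phosphate from the PI3K product. The probe on chr2:233781156-233781215 of hg18 (plus strand) had a processed signal of 1721 in SAS and 438 in eSAS cells, a 3.79-fold lower value with a log2 ratio of -1.92 and a scanner error of 0.20. Of all measured gene names, 0.455% had a lower log2 ratio. A second INPP5D probe, on chr2:233776486-233776545, was not well above background on either array (3.74 and 4.30), so the difference rests on 1 spot per array. The array annotates the 2 probes to different sequences. Whether both lie in the same transcript was not analysed. Averaging both probes without a filter, the dim 1 included, gave -0.83, and normexp fitted on all spots gave -1.11. INPP4B, another lipid phosphatase, had 2157 and 2189 at 1 probe and 127 and 103 at the other, with log2 ratios of 0.08 and -0.25 and a mean of -0.09.

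The 2 genes past 2-fold, INPP5D and PIK3CG, are shown with the 250 bases upstream of their RefSeq start (GRCh38.p14), since both windows hold the 8 letters GAGGAAGT on either strand, a form of the site of PU.1, a leukocyte transcription factor. The capitals mark these letters, which start 63 bases before the INPP5D start at chr2:233060092-233060341 (plus strand) and 192 bases before the PIK3CG start at chr7:106865229-106865478 (plus strand), where they read from the other strand. These windows were chosen after the values were seen.
INPP5D: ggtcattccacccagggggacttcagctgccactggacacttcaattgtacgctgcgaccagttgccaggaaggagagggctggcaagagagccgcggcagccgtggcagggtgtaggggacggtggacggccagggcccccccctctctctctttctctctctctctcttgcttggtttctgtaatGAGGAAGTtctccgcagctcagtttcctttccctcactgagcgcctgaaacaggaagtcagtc
PIK3CG: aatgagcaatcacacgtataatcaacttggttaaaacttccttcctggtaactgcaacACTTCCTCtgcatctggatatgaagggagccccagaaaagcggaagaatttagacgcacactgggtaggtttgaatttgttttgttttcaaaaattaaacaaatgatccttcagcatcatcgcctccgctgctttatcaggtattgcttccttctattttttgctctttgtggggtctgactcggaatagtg
The same letters were in 4.76% of 63 windows of 300 bases (250 before the start and 50 after) from 35 of the 38 genes, beside 2.59% of 35116 such windows in the whole table. INPP4B was the other gene with them. The log2 ratios of these genes were -1.92 for INPP5D, 1.14 for PIK3CG and -0.09 for INPP4B. The part of the letters in these values was not tested. AKT1S1, EIF4EBP1 and SGK3 had no window in the table. Of 8 other motifs searched on both strands, GTAAACA, bound by FOXO factors, was in 3.17% of the pathway windows and 3.42% of all, and CACGTG, the E-box bound by TFEB and MYC, was in 6.35% and 7.26%. GGGCGG, a form of the SP1 site, was in 61.9% and 45.0%, and CCAAT was in 39.7% and 34.6%. TGACTCA, the AP-1 site, was in 1.59% and 4.95%, and TGTGGTT, bound by RUNX factors, in 4.76% and 4.27%. TGACGTCA, the cAMP response element, and the palindromic NRF1 motif were in none of the pathway windows and in 1.85% and 1.24% of all. A match of letters is not a binding site.

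The leukocyte markers bear on these genes, as INPP5D, PIK3CD and PIK3CG are typical of blood cells. PTPRC (CD45) and CD3E were not well above background on either array, with PTPRC at 2.58 and 6.47. Of 7 leukocyte markers, 4 were measured on both arrays. The summed signal of the list, unscaled and with 1 probe per gene, was 1424 for SAS and 1460 for eSAS. CD68, a lysosomal protein, had 717 in SAS and 752 in eSAS cells, CD14 had 215 and 233, and CORO1A had 420 and 360. LCP1, an actin-bundling protein of leukocytes that many carcinomas also make, had 55.7 in SAS and 95.1 in eSAS cells, 1.77-fold higher. Of 11 squamous epithelium markers on the array, all were measured on both, so squamous transcripts were detected in both populations. KRT5 (22037 and 13677) and TP63 (16638 and 12106) were bright, and KRT6A was dim (46.9 and 32.7). Of 5 endothelium markers 1 was measured on both arrays, and of 6 fibroblast markers 0. Among the latter, LUM was above background in eSAS cells only and COL1A1 in SAS cells only. The summed signal of the squamous list was 65981 in SAS and 38496 in eSAS cells. It is unscaled, is ruled by the brightest probes and takes 1 probe per gene, for KRT14 the probe at 8749 and 88.3. Of the 11 squamous markers, 10 were below 0 in log2 ratio and 1, DSC3, was 1.65-fold higher. At least 1.5-fold lower were 4 of them (6.35% of all gene names and 4.99% of those measured on both arrays were). KRT14, a basal keratin, had the largest difference of the list, with 8749 and 88.3 at 1 probe and 3136 and 1286 at the other. The part of this shift in the pathway values was not tested.

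AKT1, the kinase at the centre of the pathway, was measured best, as its probe was spotted 10 times on each array. The SAS signals ran from 258 to 288 with a median of 279, and the eSAS signals from 236 to 263 with a median of 250. After scaling, 9 of 10 spots were lower on the eSAS array, with a mean log2 ratio of -0.10 ± 0.081 (SD over 10 spots of 1 array pair). The difference amounts to 1.07-fold. The spots are repeats of 1 hybridisation and not samples, so this SD says nothing about cultures.

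**Figure D2:**
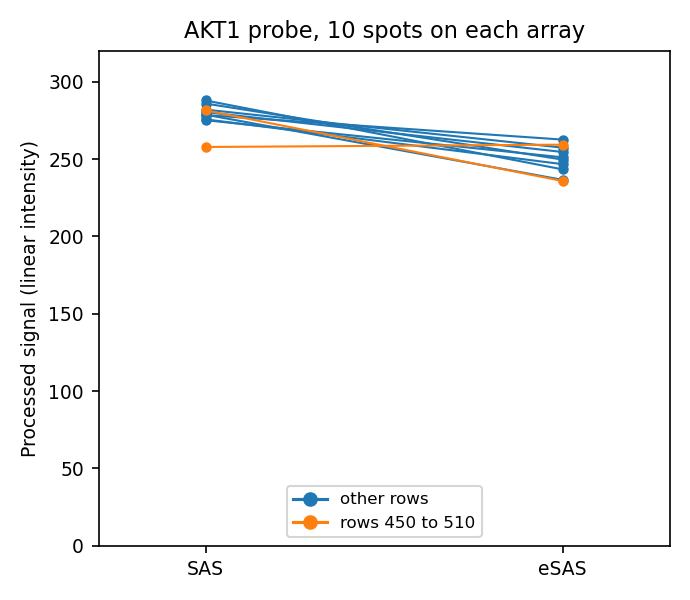
The processed signal (linear intensity, y axis from 0) of the AKT1 probe is plotted for its 10 spots on the SAS and the eSAS array, with a line joining the spots at the same place; orange marks 2 spots in rows 450 to 510, where the SAS array had most of its non-uniform spots. The SAS spots lie between 258 and 288 and the eSAS spots between 236 and 263.

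AKT2 had 3 probes, at 28633 and 31137, 1872 and 2007, and 94.0 and 81.7 in SAS and eSAS cells, and a mean log2 ratio of 0.06. PDPK1, the kinase that phosphorylates AKT at the membrane, had a mean of 0.05, with 2539 and 2599 at its brightest probe and log2 ratios from -0.10 to 0.16 over 3 probes. PHLPP, a phosphatase that removes an activating phosphate from AKT, had 366 in SAS and 525 in eSAS cells. Its 1.49-fold difference (log2 ratio 0.58, scanner error 0.20) was just short of the limit, and it passed the limit with centring on the median or quantile normalization. Its second probe was not above background.

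SGK encodes a kinase related to AKT that is induced by serum and glucocorticoids. Its probe had 46546 in SAS and 32874 in eSAS cells, a log2 ratio of -0.45 (-1.03 with normexp fitted on all spots), while SGK3 had 561 and 546 (0.01). Of the FOXO factors, FOXO1 had 2361 and 2153 at the brighter probe and 586 and 570 at the other, with a mean log2 ratio of -0.03. FOXO3 had 782 and 844, and 370 and 414 at its second probe, with a mean of 0.19. Neither FOXO gene passed 1.2-fold.

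The genes between AKT and mTOR had nearly equal signals. TSC1 had 889 in SAS and 909 in eSAS cells, and TSC2 had 749 and 773. RHEB had 11622 and 12806 at 1 probe and 117 and 127 at the other. The 3 gene means ran from 0.09 to 0.18 in log2 ratio. STK11 (LKB1), the kinase that activates AMPK, had a mean of 0.10 from 797 and 766 at the brighter probe and 133 and 147 at the dimmer. PRKAA1, the other AMPK catalytic subunit, had 1851 and 2059 (0.21).

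The subunits of the mTOR complexes lay between -0.05 and 0.36. FRAP1, the kinase itself, had 1126 in SAS and 1106 in eSAS cells (log2 ratio 0.03). KIAA1303, which presents substrates in complex 1, had 3851 and 3585 (-0.05). RICTOR, which defines complex 2, had 3517 and 3429 at 1 probe and 213 and 228 at the other (mean 0.08). AKT1S1 (PRAS40), an inhibitor of complex 1 that AKT phosphorylates, had 739 and 913 (0.36) at its single spot, which lies in the rows with many non-uniform spots on the SAS array. Adjacent spots there had a median log2 ratio of 0.20. The AKT1S1 spot itself was not marked, and its difference did not pass 1.5-fold.

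Genes that act in translation below mTOR complex 1 showed little difference, with gene means from -0.14 to 0.10. EIF4EBP1, a repressor of the cap-binding protein, had 20651 in SAS and 20625 in eSAS cells (log2 ratio 0.05). EIF4EBP2 had 12770 and 12873 at the brightest of 4 probes, and the probes ran from -0.23 to 0.07. EIF4E, the cap-binding protein, had 3 probes between 0.09 and 0.13, the brightest at 3546 and 3740. The remaining EIF4E probe was above background only in eSAS cells (19.1), which bounds its log2 ratio at 0.63 or higher, and went into no gene mean. RPS6KB1, an S6 kinase, had 2677 and 2652, 2252 and 2022, and 1755 and 1322 at its 3 measured probes, with a mean of -0.14, and RPS6KB2 had 756 and 709 (-0.04).

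The RSK kinases act beside the pathway, under ERK and PDK1, and also phosphorylate TSC2. RPS6KA3 (RSK2) was lower in eSAS cells at both of its probes, which lie on the minus strand of hg18. The probe on chrX:20083401-20083459 had 1614 in SAS and 983 in eSAS cells, and the probe on chrX:20078000-20078059 had 3300 and 1890. Their log2 ratios were -0.66 and -0.75, each with a scanner error of 0.20, and the gene mean of -0.71 is a 1.63-fold difference. RPS6KA3 is the 1 called gene with more than 1 measured probe of its own name. RPS6KA1 had 814 and 680 (-0.20) and RPS6KA2 had 76.1 and 79.5 (0.12).

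Position on the array and in the genome was examined for the pathway genes, and is given mainly for the 3 called genes. None of the 77 spots of the 38 genes was marked as non-uniform or as an outlier. The median log2 ratio of spots adjacent to a pathway spot ran from -0.40 to 0.41, with a median of -0.01 over the 77 spots, and was 0.21 at INPP5D, 0.07 at PIK3CG and 0.0031 and 0.10 at RPS6KA3. The part of array position in the 3 differences was not tested.

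Within 1000 kb of the INPP5D probe in hg18, 18 other gene names had a median log2 ratio of -0.08, and 2 of them were at least 1.5-fold lower. Around RPS6KA3, 5 gene names had a median of -0.17, with 2 at least 1.5-fold lower, the lowest at -0.77. Around PIK3CG, 15 gene names had a median of 0.13, and the 1 at least 1.5-fold higher was the transcript cluster described above. Of the windows around the other pathway genes, those of IRS2, FOXO1 and PHLPP are given, picked after their values were seen. All 8 gene names around IRS2 were below 0 (median -0.35, 3 at least 1.5-fold lower), and IRS2 itself was at -0.30. Around FOXO1, 14 gene names had a median of -0.25, while FOXO1 itself was at -0.03. Around PHLPP, 3 of 17 gene names were at least 1.5-fold higher, and the median of the 17 was 0.08. Among all gene names measured on both arrays, as these neighbours were, 3.19% were higher and 4.99% were lower. DNA copy number was not measured, and its part in these values was not tested.

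**Figure D3:**
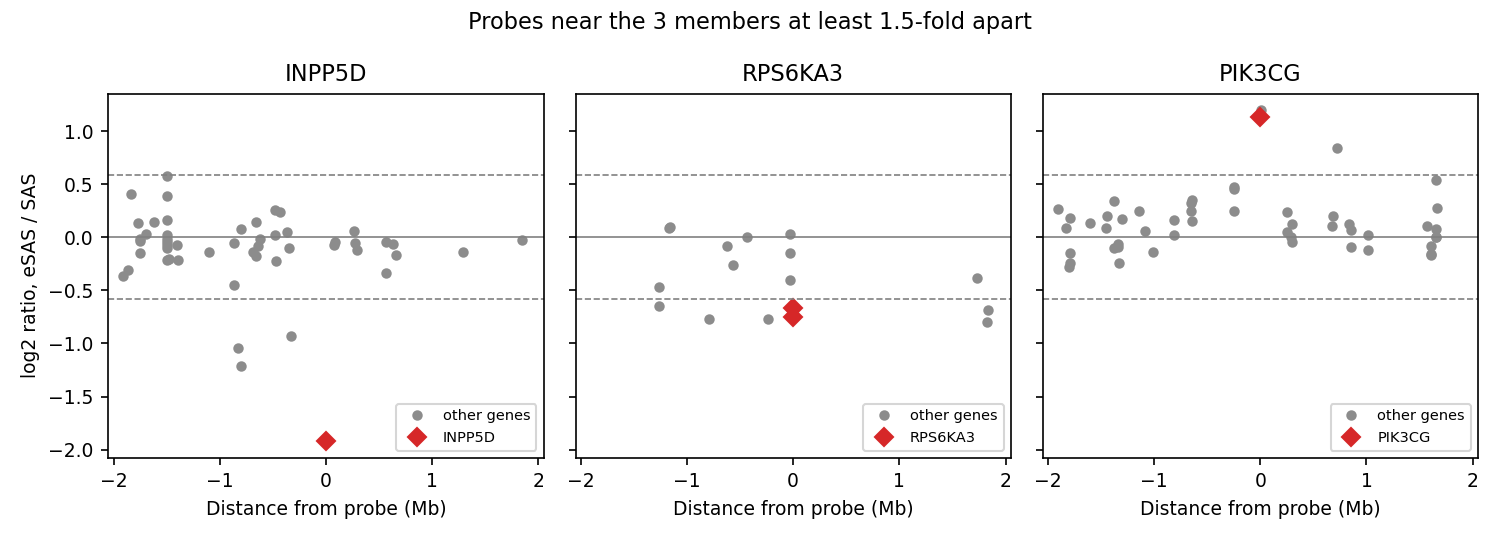
The log2 ratio of eSAS over SAS (y axis) is plotted against the distance in Mb (x axis, within 2 Mb) of other genes' probes, in grey, from the INPP5D, RPS6KA3 and PIK3CG probes, in red; dashed lines mark 1.5-fold. INPP5D at -1.92 lies below every grey point in its panel, RPS6KA3 at -0.66 and -0.75 lies among points of similar value, and the grey point at the same height as PIK3CG and close to 0 Mb is the unnamed transcript cluster.

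A longer list of 70 other pathway genes gave a similar picture. Of these, 67 were on the array and 59 were measured, 58 of them on both arrays, with a median log2 ratio of 0.01. At least 1.5-fold higher was 1 (1.69%, beside 4.64% of all gene names and 3.19% of those measured on both arrays). At least 1.5-fold lower were 2 (3.39%, beside 6.35% and 4.99%). GAB2, an adaptor that binds PI3K, had 80.1 in SAS and 126 in eSAS cells, 1.63-fold higher, but its second probe went the other way, from 67.7 in SAS cells to a signal not well above background in eSAS cells, at least 4.29-fold lower. No direction can be given for GAB2. RPS6KA5 (MSK1), a relative of the RSK kinases, was 1.67-fold lower in eSAS cells with 3 probes between -0.86 and -0.63, the brightest at 2562 and 1596, but normexp fitted on all spots turned its direction (0.81). FOXO4 was 1.71-fold lower at dim signals of 38.5 and 21.7, at a spot in the rows with many non-uniform spots on the SAS array, and its other two probes were not above background. Normexp fitted on all spots turned the direction of FOXO4 as well (2.67). TFEB, a transcription factor of lysosomal genes that mTOR complex 1 holds in the cytoplasm, had 779 and 501 (-0.58), just inside the limit. The mTOR complex subunits MLST8 and MAPKAP1 were at 0.19 and 0.07, and TRIB3, a pseudokinase that binds AKT, was at 0.39.

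Known FOXO target genes, induced when FOXO factors are in the nucleus, were also examined. Of 20 genes, 19 were on the array and 14 were measured, all on both arrays, and 0 passed 1.5-fold in either direction. Among all gene names 4.64% were higher and 6.35% lower, and among those measured on both arrays 3.19% and 4.99%. At such shares few of 14 genes would pass. Their median log2 ratio was 0.08, with 9 above 0 and 5 below. CITED2, a transcriptional coregulator, was the highest at 0.55 (6768 in SAS and 9551 in eSAS cells), followed by BCL6, a repressor, at 0.39 (816 and 1033). The lowest was GADD45A, a stress response gene, at -0.30. TNFSF10, a death ligand, was at -0.25.

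**Figure D4:**
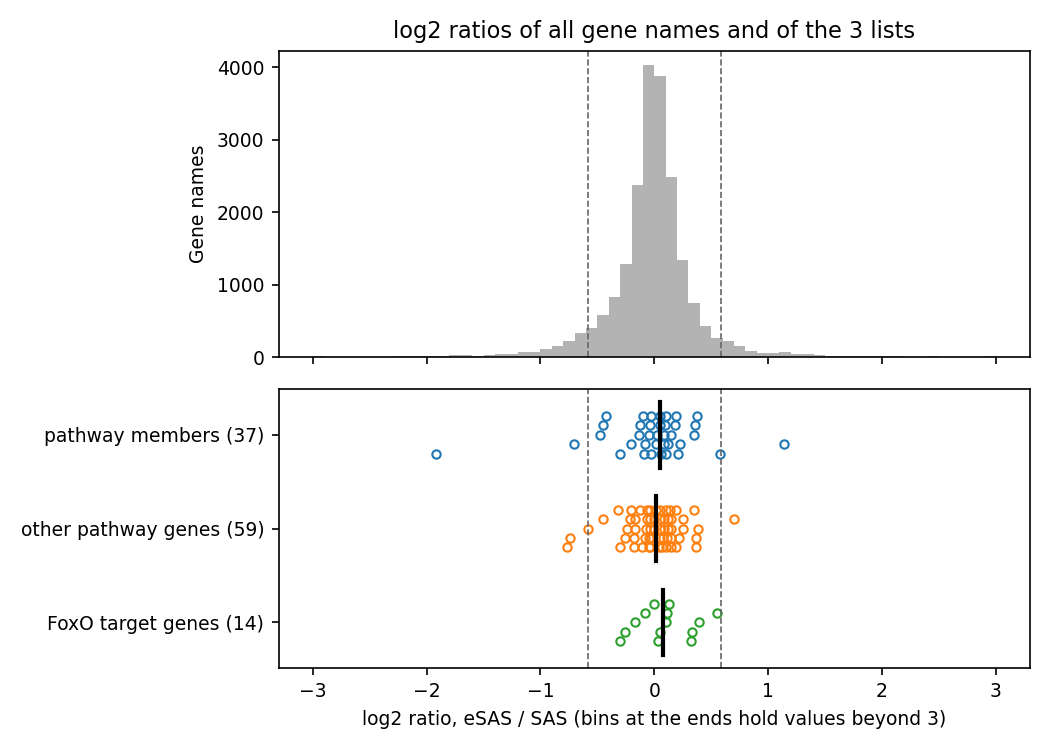
The upper panel counts all measured gene names by log2 ratio of eSAS over SAS in bins of 0.1, and the lower panel shows each gene of the 37 pathway genes, 59 other pathway genes and 14 FOXO target genes, with black bars at the medians of 0.05, 0.01 and 0.08 and dashed lines at 1.5-fold; the vertical spread within a row carries no value. Most genes of each list lie between the dashed lines, as do 89.0% of all gene names.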

How the data were processed

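The RNA of each population went onto 1 Cy3 array, 2 arrays of 1 slide in all. The authors deposited linear intensity values from Agilent Feature Extraction 10.7.3.1 (version per the submitters' processing notes), with background subtracted and spatial trends removed, but no scaling between arrays. Their table for the series equalled these values, within 0.01%, at all 45015 spots. Of the probe spots, 69.4% (SAS) and 67.5% (eSAS) were well above background and 0 were saturated.

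From the deposited values, log2 was taken minus each array's 75th percentile over non-control spots. Spots the software marked as outliers or non-uniform were dropped, and repeat spots averaged. A probe was above background if over 50% of its spots were. Where a probe or gene qualified on 1 array only, a bound was used, set from the lowest signal well above background (12.8 on SAS, 15.2 on eSAS). No test between the populations was made, and the number of arrays limits the precision. The calling was run on simulated data with the noise of replicate spots only. There, 200 of 200 genes set 2-fold apart were recovered and 0 of 20260 unchanged genes were called. That noise is small beside the 1.5-fold limit, so such scores followed from the settings. They do not show whether calls from single arrays hold across cultures or hybridisations. Every pathway gene is reported, and of the other lists the genes at least 1.5-fold apart and at most 6 more each. Some results for single genes of the lists are not reported here, although counts include them. The pathway genes and lists were chosen with earlier results of these data known. Promoters are RefSeq's (GRCh38.p14), and probe positions come from the array files (hg18). Alternatives were other scalings, background corrections, filters and probe choices. Python 3.11.15, R 4.3.3 and limma 3.58.1 were used.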

Additional observations from a re-analysis of the deposited data

How the results depend on the processing

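PIK3CG stayed at least 1.5-fold higher, and INPP5D and RPS6KA3 at least 1.5-fold lower, in eSAS cells under each of the 14 alternatives run. Their log2 ratios ran from 0.62 to 2.56, from -1.98 to -0.83 and from -0.76 to -0.67. Several of the alternatives could not move them. The authors' series values equalled the main values. PIK3CG has 1 unmarked spot outside rows 450 to 510, so its ratio stayed at 1.14 under every choice of spots, probes or filters. Only scalings and background corrections could change it. GAB2 turned to -1.81 without a filter on dim probes, and FOXO4 and RPS6KA5 turned to 2.67 and 0.81 with normexp fitted on all spots. Normexp background correction fitted on all spots moved the median of all gene names to 0.62 and put 50.9% of them at least 1.5-fold higher. Under it 15 pathway genes, 26 other pathway genes and 8 FOXO targets were at least 1.5-fold higher, 3 pathway genes (SGK was added), 4 other pathway genes and 2 FOXO targets were lower, and the list medians were 0.42, 0.42 and 0.69, which is -0.21, -0.20 and 0.07 relative to all gene names. Centring on the median gave 2 higher pathway genes and 1 higher FOXO target, and quantile normalization gave 2 higher pathway genes. PHLPP was the added pathway gene under both and CITED2 the FOXO target. Of all gene names, 5.09% were higher with centring on the median and 5.02% with quantile normalization. Without a filter on dim probes, 2 pathway genes were higher (PIK3CD was added) and PIK3R1 was also lower (-0.78), 6 other pathway genes were lower and 1 FOXO target was higher. In that setting 6.84% of all gene names were higher and 8.52% were lower. With marked spots kept, 1 FOXO target was higher, as were 5.00% of all gene names. Without rows 450 to 510, 1 other pathway gene was lower (6.31% of all gene names were), as FOXO4 lost its spot. The pathway genes AKT1S1 and PIK3C3 had no value in that setting. With normexp fitted without spots of marked local background, with no background correction and with median pixels, 0 other pathway genes were higher and 0 were lower. The cause of these moves was not tested. No paired analysis was possible because each population has a single array, and a block for the slide was not run because both arrays lie on 1 slide. Among the 37 pathway genes, 34 moved by more than the SD of replicate spots under normexp fitted on all spots, and at most 7 under any other alternative. Ratios of dim probes, such as those of PIK3CG and PIK3R2, carry the larger scanner errors.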
